A study of Homo sapiens with 6 samples.

Results

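Keratins are the intermediate filament proteins of epithelial cells, and 8 keratin genes known from breast epithelium and breast cancer lines were followed here after depletion of LSD1. The members were taken as all probe sets that the array's annotation assigns to exactly 1 of the symbols KRT7, KRT8, KRT10, KRT17, KRT18, KRT19, KRT80 and KRT81. This gave 12 of 54675 probe sets, which stand for 6 of the 8 genes. KRT17 and KRT81 have no probe set listed in the annotation table used and were not analysed here. No probe set listed with several symbols includes a member.

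The cells were MDA-MB-231, a human breast cancer line without estrogen receptor that has mesenchymal features. All cells were transfected, in 2 rounds over 6 days, with a control siRNA (3 arrays) or an siRNA against LSD1 (3 arrays), 1 array for each of 3 biological replicates. LSD1, the product of KDM1A, is a demethylase of histone H3. Whether more than 1 siRNA against LSD1 was used is not given in the sources used here, and the siRNA is the only difference the labels give between the groups.

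A keratin filament is built from heterodimers, each of 1 acidic type I and 1 basic type II keratin. KRT8 (type II) and KRT18 (type I) form the first pair of simple epithelia. KRT7 (type II) and KRT19 (type I) join them in glandular and luminal breast cells. KRT10 (type I) is best known from the upper layers of the epidermis, where it pairs with KRT1, and KRT80 is a type II keratin of many epithelia. Keratin filaments are tied to desmosomes and hemidesmosomes by linker proteins such as desmoplakin and plectin.

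The targeted gene was measured first. KDM1A gave signals of 2540, 2493 and 2295 on the control arrays and 291, 184 and 228 on the LSD1 siRNA arrays, which leaves 9.58% of the control mean. The trimmed mean signal was the same on all 6 arrays (500.1). The ratio of 3' to 5' ACTB signal, a measure of RNA quality, was 1.74 on control array 1 and 1.33 to 1.43 on the other 5. All 6 marker genes listed for the line (VIM, CD44, EGFR, AXL, CAV1 and MSN) passed the filter on low signals described below. In the test described there MSN rose by 0.60 on the log2 scale (limma adjusted p = 4.60e-05). Over 17 alternative settings the MSN change ranged from 0.27 to 0.66 and passed in each. EGFR changed by -0.25 (limma adjusted p = 0.0191), and the other 4 did not pass. EGFR was at 0.11 as an average of its probe sets and did not pass without control array 2 or 3 or LSD1 siRNA array 1 or 2 (adjusted p from 0.0554 to 0.0754). The estrogen receptor gene ESR1, 1 of 6 luminal or epithelial markers listed, had mean signals of 59.1 (control) and 75.7 (LSD1 siRNA). All 6 were above the filter, and none passed the test. Their summed signals lay between 2541 and 2807 on the control arrays and between 2547 and 2774 on the LSD1 siRNA arrays. The brightest was EPCAM, with means of 1658 (control) and 1644 (LSD1 siRNA). Summed signals of 3 leukocyte markers lay between 130 and 143 on the control arrays and between 103 and 144 on the LSD1 siRNA arrays. Those of 4 endothelial markers lay between 180 and 224 and between 184 and 203, and those of 4 fibroblast markers between 512 and 611 and between 563 and 706. The fibroblast marker LUM had mean signals of 1.90 with control siRNA and 95.2 with LSD1 siRNA at one of its probe sets. It was not tested, because its mean over all arrays on the log2 scale was below the filter.

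Promoter sequence was found for 2 of the 8 members, 1 of which fell (KRT8) and 1 of which rose (KRT10). Both sequences are from RefSeq, build GRCh38.p14, minus strand, and cover the 250 bases before the gene start listed there, 5' to 3'. Any other transcript starts of these genes were not looked at. The 2 sequences are shown because these are the members matched in the table of promoters. Capitals mark matches, on either strand, to a set of motifs. The set is TATAAA for the TATA box, the CCAAT box, GGGCGG for the GC box, TGANTCA for AP-1 factors, CAGGTG for the E-box that SNAI and ZEB repressors bind, and CCGGAAGT for ETS factors. These motifs were chosen after the sequences were seen.
KRT8, chr12:52926470-52926719: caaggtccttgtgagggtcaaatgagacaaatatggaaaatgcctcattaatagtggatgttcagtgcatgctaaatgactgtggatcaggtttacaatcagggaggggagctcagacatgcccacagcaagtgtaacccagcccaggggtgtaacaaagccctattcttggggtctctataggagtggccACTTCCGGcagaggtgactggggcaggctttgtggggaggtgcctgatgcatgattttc
KRT10, chr17:40822615-40822864: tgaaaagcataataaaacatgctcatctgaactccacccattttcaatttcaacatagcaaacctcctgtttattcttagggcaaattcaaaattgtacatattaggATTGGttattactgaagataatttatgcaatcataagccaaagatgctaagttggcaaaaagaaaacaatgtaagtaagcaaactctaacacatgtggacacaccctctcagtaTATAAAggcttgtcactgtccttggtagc
The KRT10 window holds TATAAA from 29 to 24 bases before the start and CCAAT, on the opposite strand, from 143 to 139 bases before it. The KRT8 window holds CCGGAAGT on the opposite strand, from 59 to 52 bases before the start, and none of the other motifs. Of 35116 RefSeq promoters cut to the same length, 10.7% hold the TATA box letters, 32.0% those of the CCAAT box, 42.6% of the GC box, 6.57% of AP-1, 17.5% of the E-box and 3.42% of the ETS motif. No motif match overlaps another in these 2 windows, and a match is a description of letters, not of a bound site.

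The keratins moved in both directions and by little. The simple-epithelial pair KRT8 and KRT18 fell, KRT19 and KRT10 rose, and KRT7 and KRT80 did not pass the test. Among the 6 genes measured, 2 rose and 2 fell with LSD1 siRNA at an adjusted p below 0.05 (limma, Benjamini-Hochberg over 13822 genes). By the same test 41.0% of all genes passed, 19.8% higher and 21.3% lower, so 4 of 6 members is read against a high background. The median log2 change was 0.055 over the 6 members and -0.019 over all genes tested. None of the 6 changed by 2-fold or more. A change of 2-fold or more with an adjusted p below 0.05 was seen for 4.63% of all genes (4.15% of probe sets). The 2 groups of arrays were fully separated for 4 of the 6, and for 50.4% of all genes tested. The RNA is from whole cultures, so fewer cells that express a gene and less of its RNA per cell cannot be told apart.

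**Figure D1:**
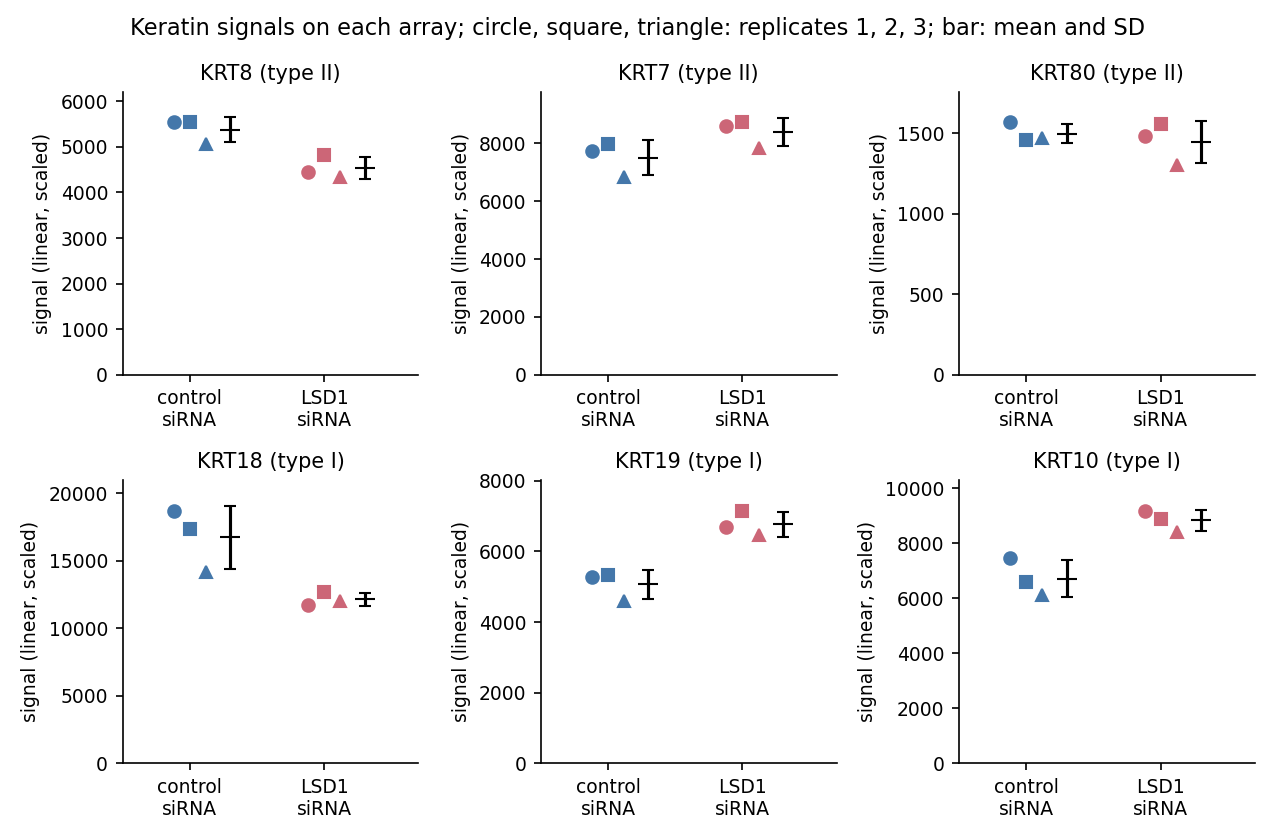
Signal of the probe set that represents each keratin gene on every array (linear scaled signal, axes from 0); circles, squares and triangles are replicates 1, 2 and 3, and the bars give mean and SD (n = 3). The groups do not overlap for KRT8, KRT18, KRT19 and KRT10, and they overlap for KRT7 and KRT80.

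KRT18, the type I partner of KRT8, had signals of 18689, 17362 and 14141 on the control arrays and 11733, 12666 and 12039 on the LSD1 siRNA arrays. Every LSD1 siRNA array was below every control array, and control array 3 was nearest to them. The mean fell from 16731 ± 2339 to 12146 ± 476 (SD, n = 3), which on the log2 scale is -0.45 (SE 0.092; adjusted p = 0.00187, limma). This left 72.6% of the control signal, and 14.5% of all genes tested had a lower log2 change. Without control array 3 the change was -0.57, and without control array 1 it was -0.37. In the unmoderated test, which uses each gene's own variance alone, the adjusted p was 0.0650.

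KRT8, the type II partner, had signals of 5540, 5540 and 5062 with control siRNA and 4450, 4817 and 4347 with LSD1 siRNA. The groups did not overlap, and the gap between them was smaller than the range within either group. The mean went from 5380 ± 276 to 4538 ± 247 (SD, n = 3), which on the log2 scale is -0.25 (SE 0.065; adjusted p = 0.00949, limma). The call depended on the settings: the adjusted p was 0.0506 without LSD1 siRNA array 3, 0.0529 with no intensity trend in the variance and 0.0537 in the unmoderated test.

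KRT8 and KRT18 lie next to each other on chromosome 12 in the RefSeq annotation. Both are measured here by 1 probe set with the x suffix, which marks probes that can bind other transcripts. RefSeq lists 52 pseudogenes named for KRT8 and 68 named for KRT18, so signal from related transcripts in these 2 values cannot be told apart from the genes' own. A pseudogene with its own probe sets, KRT8P12, gave means of 87.3 ± 13.96 and 121 ± 24.1 (SD, n = 3) at the set that represents it, with an adjusted p of 0.148 (limma). Its other set above the filter had means of 81.2 ± 51.3 and 79.2 ± 24.4 (SD, n = 3). The ratio of KRT8 to KRT18 signal within each array was higher on all 3 LSD1 siRNA arrays than on the controls. Its log2 value was -1.63 ± 0.14 with control siRNA and -1.42 ± 0.042 with LSD1 siRNA (SD, n = 3). This is a log2 difference of 0.21. The highest control array was at -1.48 and the lowest LSD1 siRNA array at -1.47, so the groups nearly met. Of all pairs of genes tested, 47.1% had ratios that did not overlap between the groups. Without control array 1 the log2 difference of KRT8 to KRT18 was 0.14, and without control array 3 it was 0.28.

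KRT19, a small type I keratin of luminal and simple epithelia that lacks most of the tail domain, moved the other way. Its signals were 5271, 5338 and 4601 with control siRNA and 6707, 7153 and 6461 with LSD1 siRNA. All 3 LSD1 siRNA arrays were above all 3 controls. The mean rose from 5070 ± 407 to 6774 ± 351 (SD, n = 3), which on the log2 scale is 0.42 (SE 0.071; adjusted p = 0.000560, limma). Of all genes tested, 83.6% had a lower log2 change. This probe set carries no suffix that marks cross-hybridisation. RefSeq lists 5 pseudogenes named for KRT19, and whether their transcripts add to this signal was not tested. The call held under each of 17 alternative settings, with adjusted p from 0.000348 to 0.0298. A second KRT19 probe set was below the filter and was not tested. Its signals were 17.8, 2.46 and 5.69 with control siRNA and 57.4, 10.8 and 18.7 with LSD1 siRNA, and the groups overlapped.

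KRT10 rose at each of its 3 probe sets. At the set that represents the gene, signals were 7465, 6578 and 6116 with control siRNA and 9186, 8891 and 8428 with LSD1 siRNA, without overlap. The mean rose from 6719 ± 686 to 8835 ± 382 (SD, n = 3), which on the log2 scale is 0.40 (SE 0.076; adjusted p = 0.00121, limma). The other 2 sets, both with the x suffix, gave log2 changes of 0.32 and 0.44 in a fit with every probe set as its own row (limma adjusted p = 0.00258 and 0.00366). In that fit the set at 0.44 had an adjusted p of 0.0511 with no intensity trend. Unmoderated, it had 0.0979, and the representative set 0.0514. KRT1, its epidermal partner, had a mean over all arrays below the filter and was not tested. Its signals lay between 4.26 and 55.3 over the 6 arrays. The KRT1 means were 12.8 ± 6.29 with control siRNA and 38.3 ± 29.4 with LSD1 siRNA (SD, n = 3). KRT10-AS1, named for its antisense position to KRT10 and looked up after the KRT10 values were seen, rose from 1577 ± 57.2 to 1897 ± 102 (SD, n = 3), which on the log2 scale is 0.26 (limma adjusted p = 0.00795).

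KRT7, the type II keratin of glandular ducts, did not pass. At its representative probe set the signals were 7726, 7994 and 6823 with control siRNA and 8597, 8733 and 7858 with LSD1 siRNA. The lowest LSD1 siRNA array lay within the range of the controls. The means were 7514 ± 614 and 8396 ± 471 (SD, n = 3), a log2 difference of 0.16 (SE 0.073; adjusted p = 0.0999, limma). Its other tested sets gave -0.21 (SE 0.17) and 0.090 (SE 0.25), so the 3 sets differ in sign. Neither of these 2 passed in the fit by probe set (limma adjusted p = 0.387 and 0.822). Both were far dimmer, with means of 216 and 69.9 with control siRNA and 186 and 74.6 with LSD1 siRNA. The mean of all KRT7 probe sets, which includes these dim sets and an untested one, gave 0.027. Without control array 3 the representative set was at 0.094. The set at -0.21 ranged from -0.34 to -0.095 when 1 array was left out, reaching -0.34 without LSD1 siRNA array 1 and -0.095 without control array 1. One more set was below the filter, with signals between 5.03 and 19.4 over the 6 arrays.

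KRT80, a type II keratin whose gene lies next to KRT7, did not pass either. Its signals were 1569, 1457 and 1472 with control siRNA and 1485, 1556 and 1305 with LSD1 siRNA, which overlap. The log2 difference was -0.052 (SE 0.078; adjusted p = 0.637, limma), and it was 0.020 without LSD1 siRNA array 3.

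**Figure D2:**
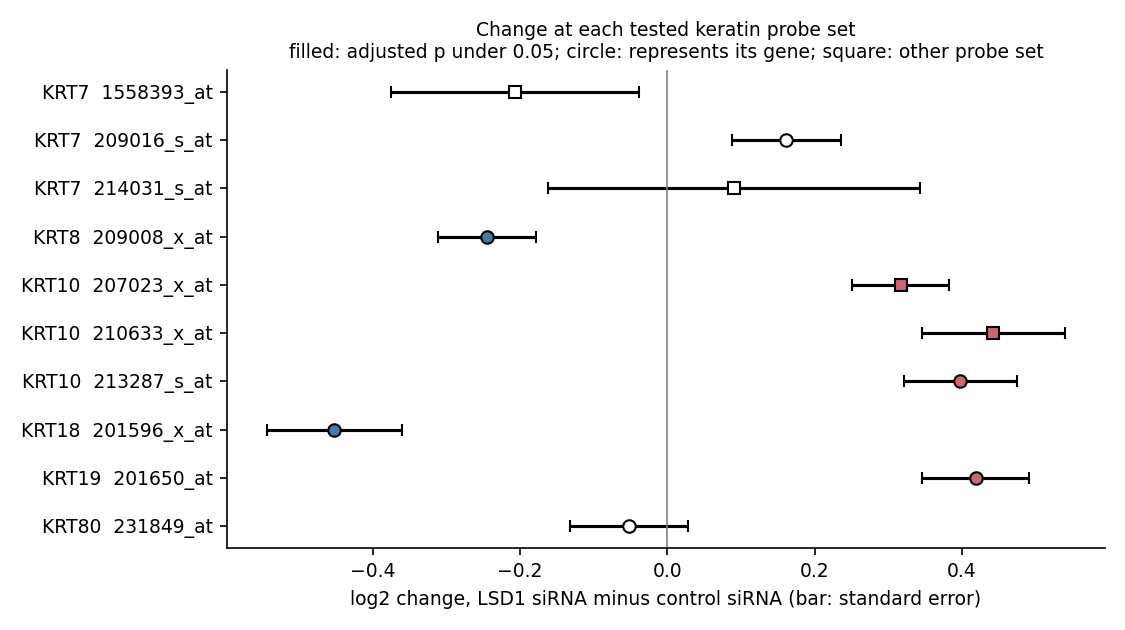
Log2 change (LSD1 siRNA minus control siRNA) with its standard error for the 10 keratin probe sets above the filter, n = 3 arrays per group; filled symbols have an adjusted p below 0.05. The KRT10 and KRT19 sets lie between 0.32 and 0.44, KRT8 and KRT18 lie at -0.25 and -0.45, and the 3 KRT7 sets lie on both sides of 0.

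Of the 12 probe sets, 10 passed the filter, and 4 of these were higher and 2 lower in the fit over 27079 probe sets. In that fit 34.4% of all probe sets passed, 17.0% higher and 17.4% lower. The 6 that passed were also those whose groups did not overlap, as was the case for 46.0% of all probe sets tested. Both sets that fell carry the x suffix, and 2 sets were higher when all such sets were left out. The KRT8 set had an adjusted p of 0.0529 without control array 2 and of 0.0656 without LSD1 siRNA array 3. Control array 3 had the lowest control signal at 8 of the 10 member sets, against 33.9% of all sets tested. Without that array 2 member genes were higher and 2 lower, as with it, and this was also so without control array 1.

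Ratios between keratins within an array restate the changes of single genes given above, and they were looked at after those values were seen. Of the 15 pairs that the 6 genes form, 14 had ratios that did not overlap between the groups, as did 47.1% of all pairs of genes tested. The 15 pairs are not independent, since each gene is in 5 of them. The log2 ratio of KRT19 to KRT18 went from -1.71 ± 0.10 to -0.84 ± 0.048 (SD, n = 3), a difference of 0.87. That of KRT19 to KRT8 went from -0.087 ± 0.044 to 0.58 ± 0.012 (SD, n = 3), a difference of 0.66. These 2 pairs set the gene with the largest rise against those that fell. KRT19 and KRT10, which rose, differed in log2 change by 0.021, and their ratio was the one that overlapped between the groups. A ratio of this kind compares changes, since signals of different probe sets have no common scale.

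The genes whose 6 array values, relative to the control mean, lay nearest to those of KRT19 were PLAAT3, SHISA5 and TWF2, at Euclidean distances of 0.074, 0.076 and 0.090 on the log2 scale. Those nearest to KRT18 were POLDIP3, SNRPB and DUS1L, at 0.056, 0.094 and 0.11. POLDIP3 was at -0.45 but at -0.29 when its probe sets were averaged (limma adjusted p = 0.159).

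Of the other keratin genes, 37 of 46 listed had a probe set, and only 9 of these passed the filter: 5 of type I and 4 of type II. One of them passed the test, KRT15, a type I keratin of basal and progenitor cells whose gene lies next to KRT19. Its signals were 96.0, 87.2 and 67.9 with control siRNA and 192, 329 and 188 with LSD1 siRNA, a log2 change of 1.31 (SE 0.23; adjusted p = 0.000590, limma). Every LSD1 siRNA array was above every control, and LSD1 siRNA array 2 was well above the other two. KRT15 had the only one of the 42 other keratin probe sets with a group mean above 100. The basal keratins KRT5 and KRT14 and the stress keratin KRT16 were below the filter, with signals between 5.06 and 37.3, 1.29 and 21.0, and 1.84 and 29.9. KRT6A has no probe set listed here.

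**Figure D3:**
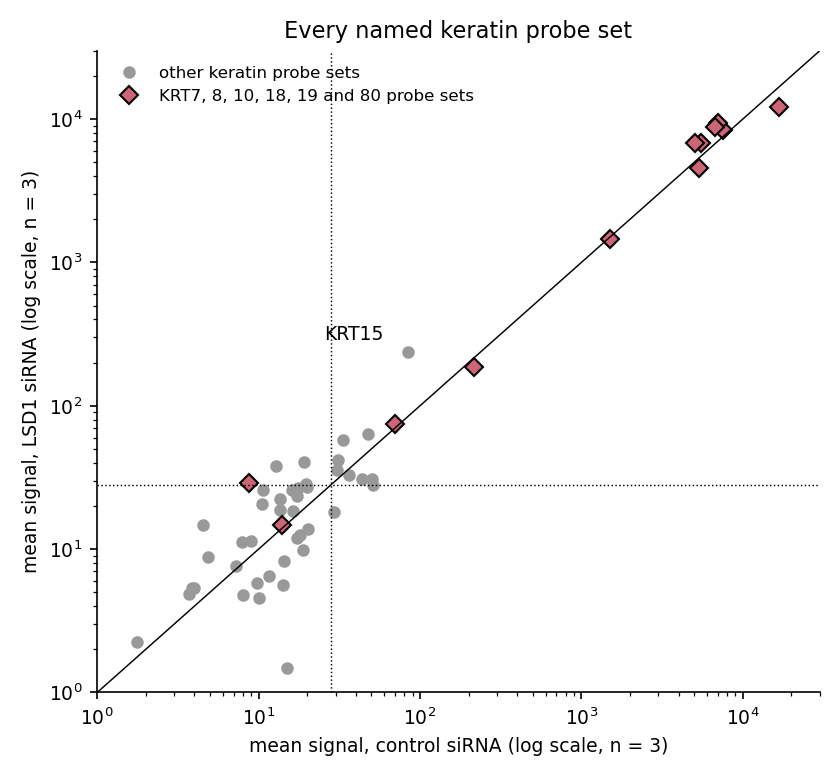
Mean signal with LSD1 siRNA against mean signal with control siRNA (log axes, n = 3 arrays each) for all 12 member probe sets (diamonds) and 42 probe sets of other keratins (grey). The diagonal marks equal signal. The dotted lines mark the filter, at a signal of about 28.0, which was applied to the mean over all arrays on the log2 scale. Of the grey points, KRT15 alone reaches a mean above 100.

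Among 10 measured genes of other intermediate filaments, 4 fell and the other 6 did not pass, with a median log2 change of -0.35. As background for this and the following lists, 41.0% of all genes passed, 19.8% higher and 21.3% lower. The median includes genes with signals near the filter. Means with control and LSD1 siRNA were 44.9 and 26.5 for DES, 44.3 and 26.5 for PRPH, and 27.2 and 44.6 for INA. The 4 that fell were LMNB2 (-1.04), LMNB1 (-0.88) and LMNA (-0.23), which encode nuclear lamins, and BFSP1 (-0.51), which encodes a beaded filament protein of the lens. LMNB2 fell from 3775 ± 301 to 1824 ± 130 (SD, n = 3). LMNA had an adjusted p of 0.0817 and 0.101 without control arrays 1 and 2 and of 0.0828 and 0.0637 without LSD1 siRNA arrays 1 and 3. Averaged over its probe sets LMNA was at 0.043. BFSP1 had an adjusted p of 0.0519 without LSD1 siRNA array 3. VIM, the vimentin gene, typical of mesenchymal cells and of this line, had signals of 32798 ± 4856 and 27438 ± 1946 (SD, n = 3), a value of -0.25 that did not pass (limma adjusted p = 0.0665). Without control array 3 it was -0.35 and passed (adjusted p = 0.00620). Without control array 1 it was -0.14 (adjusted p = 0.208), and after quantile normalization it was -0.10 (adjusted p = 0.0560).

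Genes of desmosomes, of hemidesmosomes and of the linker proteins of keratin filaments also went in both directions. Of the 16 measured, 7 rose and 4 fell, with a median of 0.11. DSC2, which encodes the desmosomal cadherin desmocollin 2, had signals of 504, 441 and 481 with control siRNA and 1414, 1493 and 1503 with LSD1 siRNA. These lie far apart, with a log2 change of 1.60 (limma adjusted p = 7.94e-08), or 0.97 when its probe sets were averaged. DSG2, another desmosomal cadherin gene, rose by 0.62, and LAMB3, a chain of laminin-332 under hemidesmosomes, by 0.87. JUP, which encodes plakoglobin, rose by 1.02 at a low signal, from 96.0 ± 32.3 to 205 ± 11.6 (SD, n = 3). Its change ranged from 0.78 to 1.24 over 17 alternative settings and passed in each. DSP, the gene of desmoplakin, which holds keratin filaments at the desmosome, fell from 4478 ± 124 to 3583 ± 109 (SD, n = 3), which on the log2 scale is -0.32. PKP4, a plakophilin family gene, changed by -0.61. PLEC, the plectin gene, changed by -0.23 at its representative set and by -0.75 at its other. Its adjusted p in the gene fit was 0.0629 and 0.0607 without control arrays 2 and 3 and 0.0661 and 0.0801 without LSD1 siRNA arrays 2 and 3.

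Of 14 genes for keratin-binding and filament-organising proteins, 3 rose and 2 fell, with a median of -0.037. TCHP, whose product trichoplein binds keratin filaments, fell from 2048 ± 149 to 1213 ± 62.9 (SD, n = 3), which on the log2 scale is -0.75. SQSTM1, the gene of the autophagy receptor p62, rose by 1.22, and by 0.75 as an average of its probe sets. TRADD, an adaptor of TNF receptor 1, rose by 0.57, and had an adjusted p of 0.200 as an average of its probe sets. PNN, the gene of pinin, changed by -0.64, but by -0.041 with its brightest set, one with the x suffix (limma adjusted p = 0.688).

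Genes of the cornified envelope were mostly dim: 13 of 24 with a probe set were below the filter. Of 11 measured, FLG, the filaggrin gene, fell by 0.69 on the log2 scale, and the other 10 did not pass. The list median was -0.18, the value of SPRR3. Its means of 34.2 with control siRNA and 30.4 with LSD1 siRNA were near the filter. Of 15 transcription factors known from epithelial differentiation or its repression, 5 rose and 2 fell, with a median of 0.046. EHF, an epithelial ETS factor, rose from 111 ± 4.39 to 1642 ± 42.6 (SD, n = 3), which on the log2 scale is 3.72 or 1.62 as an average of its probe sets. The repressor genes SNAI2 (0.92) and ZEB2 (0.85) rose, and TFAP2A, an AP-2 factor gene, changed by -1.08. Their relatives ZEB1 (0.046) and SNAI1 (0.72) did not pass (limma adjusted p = 0.556 and 0.228). ZEB1 had means of 3484 with control siRNA and 3597 with LSD1 siRNA, and ZEB2 had 206 and 384. With the mean of all probe sets ZEB2 was at 0.048 and TFAP2A at -0.22, and neither passed (limma adjusted p = 0.884 and 0.542).

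**Figure D4:**
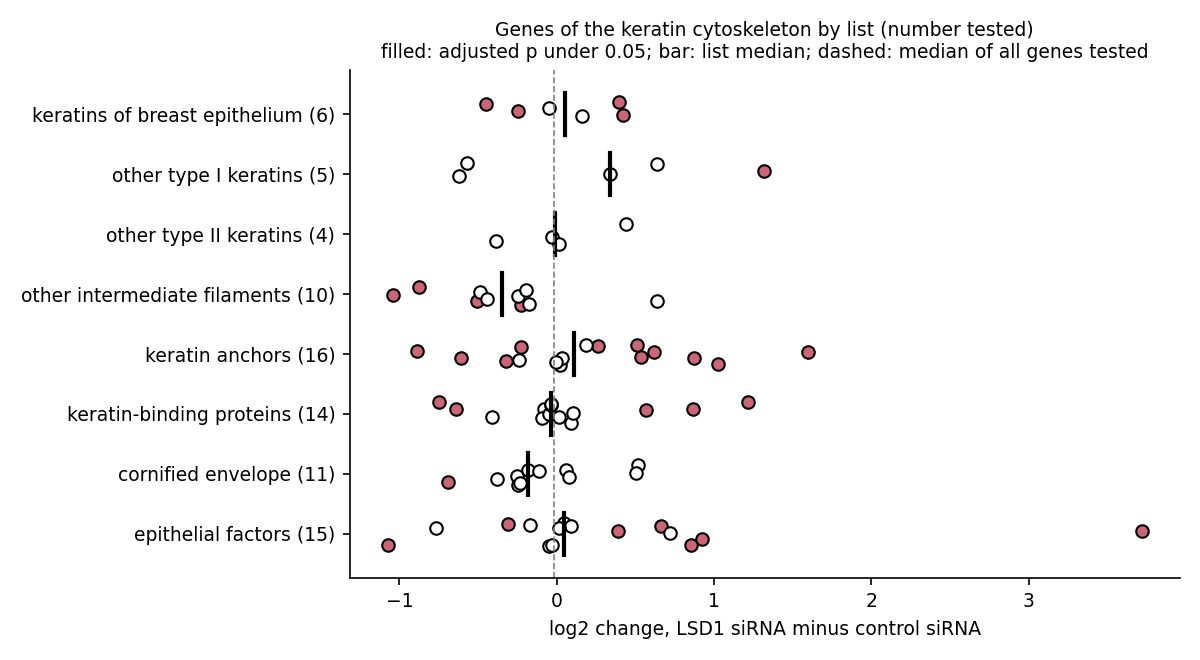
Log2 change of each measured gene in the 6 keratins and in 7 lists around the keratin cytoskeleton; filled points have an adjusted p below 0.05, the short bars are list medians and the dashed line is the median of all genes tested (-0.019). The keratins lie between -0.45 and 0.42, and EHF at 3.72 is the farthest point.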

How the data were processed

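The submitters' processing notes name GCOS, MAS5 and Affymetrix Expression Console 1.1. The authors deposited linear signal intensity values of 54675 probe sets for 6 arrays, from 2.5 ug of total RNA each, scaled to a common trimmed mean. The values carry no detection calls, and arrays give no read depth: the number of arrays limits the precision. Probe sets were named by the platform annotation and matched to RefSeq by gene identifier. Signals were raised by 15, the 25th percentile of all signals, and put on the log2 scale, which understates changes of dim genes. Each gene was represented by its brightest probe set, x suffix sets only where it had no other. Only genes whose mean over all arrays on this log2 scale exceeded the 40th percentile of all probe sets (a signal of about 28.0) were tested. A gene with very low signals in 1 group can therefore be left untested, as LUM was. The test was limma 3.58.1 in R 4.3.3 (lmFit, eBayes with an intensity trend, two-sided, Benjamini-Hochberg at 0.05). In a second fit every probe set above the filter was its own row. The fit was tested on simulated data.

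The members, lists and motifs were chosen with earlier results of these data known. The named genes are KDM1A, the members, KRT5, KRT14, KRT6A, KRT16, VIM, DSP, PLEC and JUP, from each list up to 4 genes of lowest p that passed, and the 3 genes nearest to the member with the largest rise and to that with the largest fall. KRT1, KRT8P12, KRT10-AS1, LUM, MSN and EGFR were named after their values were seen, and ratios between keratins were added then. EPCAM, DES, PRPH, INA, SPRR3, ZEB1 and SNAI1 were also named after their values were seen. Figures were drawn with matplotlib 3.10.9.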

Additional observations from a re-analysis of the deposited data

How the results depend on the processing

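The 2 higher keratin genes and their calls held under each of 17 alternatives, and the 2 lower ones under 14 of them. The lower count was 1 without the intensity trend, 0 in the unmoderated test, and ranged from 1 to 2 when 1 array was left out. Of probe sets, 4 higher and 2 lower became 3 and 1 in the fit with no intensity trend, 2 and 0 unmoderated and 2 and 0 without the x suffix sets; leaving out 1 array gave 1 to 2 lower. KRT80 ranged from -0.105 to 0.0205 when 1 array was left out, the KRT7 set at 0.090 from -0.080 to 0.25, and LMNA was at 0.043 and EGFR at 0.11 after averaging their probe sets. The ratio changes of KRT19 to KRT18 and to KRT8 were 1.06 and 0.86 after averaging probe sets, which includes the dim KRT19 set. With the replicate block, 2 keratin genes were higher and 2 lower, as without it. No call changed with it among the named genes for which alternatives were run. These include MSN, EGFR, KRT8P12 and KRT10-AS1, whose alternatives were added after seeing the data. With the block the limma adjusted p went from 0.0999 to 0.0599 for KRT7 and from 0.000560 to 0.000348 for KRT19. For KRT18 it went up, from 0.00187 to 0.00198. Deviations of same-numbered arrays correlated at 0.011, -0.012 and 0.023 over all genes tested. Whether same-numbered arrays belong together is not given by the labels and was not tested. Over all genes, 4868 passed without the intensity trend and 4255 unmoderated, against 5673. SNRPB had an adjusted p of 0.0740, BFSP1 of 0.0686 and EGFR of 0.120 unmoderated (LMNA 0.119), and LMNA of 0.0987, PLEC of 0.0523 and EGFR of 0.0884 with no intensity trend.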
